A study of Sus scrofa with 6 samples.

Results

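Endothelial cells form the single layer that lines the lumen of every artery, and 10 genes that mark this layer were followed in pig aorta: PECAM1, CDH5, VWF, KDR, TEK, TIE1, ERG, ENG, NOS3 and CLDN5. Members were taken where the symbol in the deposited gene table equalled a listed symbol. That found 8 of the 10 among 22861 genes, and all 8 were among the 11673 genes with enough counts to test. TIE1 appeared in the table under the symbol TIE-1, so it fell outside the rule. A reference annotation gave it through its identifier, and it is described apart from the 8. CDH5, which encodes VE-cadherin, matched neither by symbol nor by identifier and is not analysed here.

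The samples were abdominal aorta with atherosclerotic lesions from Wisconsin Miniature Swine (WMS) with familial hypercholesterolaemia (FH), and lesion-free abdominal aorta from WMS normal animals. Each group had 11 animals whose RNA went into 3 pools, numbered 1 to 3 for lesion and 4 to 6 for lesion-free. Lesion status and swine line go together in every pool and cannot be told apart, and sex, age, diet, sequencing batch and the animals behind each pool are not labelled. The tissue was whole aortic wall, so a lower or higher level of an endothelial gene can mean fewer or more endothelial cells or less or more RNA per cell, which bulk samples cannot tell apart.

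Endothelial cells hold blood in, keep it fluid, and set the tone of the underlying smooth muscle through nitric oxide. They are joined by adhesion molecules such as PECAM1, VE-cadherin and the tight junction protein claudin-5. They respond to VEGF through KDR and to angiopoietins through TEK, and their gene programme depends on ETS-family transcription factors, of which ERG is the best known in mature endothelium. In atherosclerosis the endothelium over a plaque is known to become permeable and to recruit monocytes, and new microvessels can grow into thick plaques. None of these genes is strictly private to endothelium: PECAM1 is also made by platelets and many leukocytes, VWF by megakaryocytes, and ENG by activated macrophages.

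The summed level of the 8 members was 586, 767 and 825 CPM in lesion pools 1, 2 and 3, against 499, 528 and 428 CPM in lesion-free pools 4, 5 and 6. CPM are read counts divided by the library size, which was scaled by TMM, the trimmed mean of M values. The sum was higher in every lesion pool than in any lesion-free pool, and PECAM1 made up 33.1% to 44.9% of it. Without PECAM1 the groups overlapped, at 323, 433 and 546 CPM in lesion pools, against 315, 353 and 275 CPM in lesion-free pools. Gene by gene, no member was called in either direction, that is, none had a limma p below 0.05 after Benjamini-Hochberg adjustment over all genes tested. Over all genes tested, 113 were called higher in lesion pools, which is 0.968% of 11673, and 9 were called lower, which is 0.0771%. A count of 0 in 8 lies near those shares and is therefore no result about the set. The estimated log2 fold, lesion over lesion-free, was positive in 8 of 8 members, against 49.9% of all genes tested, although the mean CPM of VWF was slightly lower in lesion pools. Its median over the members was 0.62, against -0.00218 over all genes tested. Ranked among all genes tested by this estimate, the members ran from percentile 61.6 for ERG to percentile 85.1 for TEK. In 3 members, PECAM1, TEK and ENG, all lesion pools lay above all lesion-free pools, and 10.5% of all genes tested had that arrangement.

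**Figure D1:**
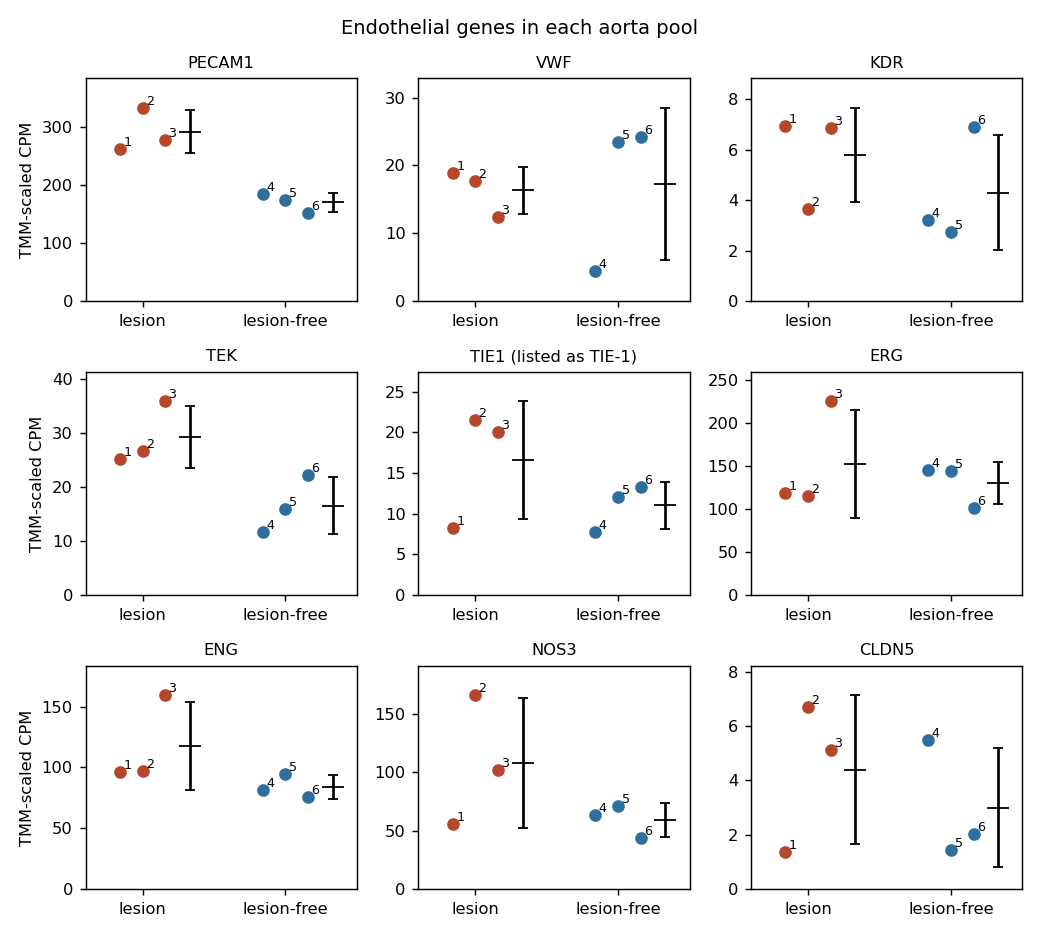
Level of each member, and of TIE1 listed as TIE-1, in TMM-scaled CPM (vertical axes from 0). Points are pools with their replicate numbers, and bars are the group mean ± SD (n = 3 pools per group); the groups separate for PECAM1, TEK and ENG and overlap for the other 6 genes.

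Among the junction and adhesion molecules, PECAM1, the immunoglobulin-family adhesion molecule of endothelial cell borders, had 264, 334 and 279 CPM in lesion pools, against 185, 175 and 153 CPM in lesion-free pools. The lowest lesion pool stood well clear of the highest lesion-free pool, and the pools of each group lay close together, within 1.27-fold in lesion and 1.21-fold in lesion-free aorta. The means were 292 ± 37.2 CPM in lesion and 171 ± 16.2 CPM without lesions (SD, 3 pools each). The log2 fold was 0.77 ± 0.25 (SE), or 1.70-fold, with a 95% interval on the log2 scale of 0.23 to 1.31. The unadjusted limma p was 0.00794 and the p adjusted over all genes tested was 0.234. With voom weights that also rate the quality of each pool, PECAM1 was the only member called, at a log2 fold of 0.89 and an adjusted limma p of 0.0387, and over 12 alternatives its adjusted p ran from 0.0387 to 0.599.

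CLDN5, the claudin of endothelial tight junctions, had 1.35, 6.70 and 5.12 CPM in lesion pools, against 5.50, 1.44 and 2.03 CPM in lesion-free pools. These values rest on 7, 75 and 56 counts in lesion pools and on 51, 12 and 20 counts in lesion-free pools. Both groups held pools near the bottom and near the top of the range, so the groups overlapped almost completely. The log2 fold of 0.81 ± 0.94 (SE) had a 95% interval of -1.20 to 2.81, with an adjusted limma p of 0.796, and it was 0.37 without lesion pool 2. A change of several fold in either direction was not detectable at this depth and spread.

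The receptors include KDR, the main signalling receptor for VEGF. It had 6.93, 3.66 and 6.85 CPM in lesion pools, against 3.24, 2.76 and 6.92 CPM in lesion-free pools. Lesion pools 1 and 3 and lesion-free pool 6 shared the same high level, and the remaining 3 pools a lower one. The counts were between 36 and 75 per lesion pool and between 23 and 68 per lesion-free pool. Its log2 fold was 0.37 ± 0.71 (SE), with a 95% interval of -1.14 to 1.87 and an adjusted limma p of 0.887, and it was 0.10 without lesion pool 3.

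TEK, the angiopoietin receptor also called TIE2, had 25.2, 26.6 and 35.8 CPM in lesion pools, against 11.7, 15.8 and 22.2 CPM in lesion-free pools. All lesion pools lay above all lesion-free pools, although the gap between lesion pool 1 and lesion-free pool 6 was small. The means were 29.2 ± 5.76 CPM in lesion and 16.6 ± 5.30 CPM without lesions (SD, 3 pools each). The log2 fold was 0.87 ± 0.37 (SE), or 1.83-fold, with a 95% interval of 0.08 to 1.66. The unadjusted limma p was 0.034 and the adjusted p 0.418. TIE1, the partner receptor of TEK that binds no angiopoietin with high affinity, had 8.28, 21.5 and 20.0 CPM in lesion pools, against 7.77, 12.1 and 13.2 CPM in lesion-free pools. Lesion pools 2 and 3 exceeded every lesion-free pool, while lesion pool 1 sat beside lesion-free pool 4 at the bottom. Its log2 fold was 0.65 ± 0.46 (SE), with an adjusted limma p of 0.645, and adding it to the 8 members moved their median to 0.65.

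ENG, or endoglin, is a co-receptor for BMP9 and TGF-beta on endothelial cells. It had 96.6, 96.7 and 159.5 CPM in lesion pools, against 81.3, 94.5 and 75.5 CPM in lesion-free pools. The groups separated by a narrow margin, and lesion pool 3 alone stood far above the rest. The means were 118 ± 36.3 CPM in lesion and 83.7 ± 9.75 CPM without lesions (SD, 3 pools each). For ENG the log2 fold was 0.47 ± 0.28 (SE), with a 95% interval of -0.14 to 1.07 and an adjusted limma p of 0.587. Without lesion pool 3 it was 0.21.

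ERG, the transcription factor that maintains endothelial junction genes, had 118, 115 and 225 CPM in lesion pools, against 145, 144 and 101 CPM in lesion-free pools. Here too lesion pool 3 was by far the highest, while the other lesion pools lay inside the lesion-free range. For ERG the log2 fold was 0.19 ± 0.31 (SE), with a 95% interval of -0.47 to 0.84 and an adjusted limma p of 0.866. Without lesion pool 3 the log2 fold of ERG was -0.14.

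NOS3, the endothelial nitric oxide synthase, had 55.8, 166 and 102 CPM in lesion pools, against 63.7, 71.4 and 43.2 CPM in lesion-free pools. Lesion pools 2 and 3 lay above all lesion-free pools and lesion pool 1 lay within them. The lesion pools differed among themselves by 2.97-fold. The means were 108 ± 55.4 CPM in lesion and 59.4 ± 14.5 CPM without lesions (SD, 3 pools each), with a log2 fold of 0.80 ± 0.37 (SE) and a 95% interval of 0.01 to 1.60. The unadjusted limma p was 0.0475 and the adjusted p 0.465, and without lesion pool 2 the log2 fold was 0.42. Together with PECAM1 and TEK, NOS3 was among the 3 members whose unadjusted p was below 0.05, as were 1241 of all 11673 genes tested.

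VWF encodes von Willebrand factor, the large clotting protein that endothelial cells store and release. It had 18.9, 17.8 and 12.4 CPM in lesion pools, against 4.43, 23.4 and 24.2 CPM in lesion-free pools. The 3 lesion pools fell between the lesion-free extremes, and lesion-free pool 4 alone was low, so that the lesion-free pools spanned 5.47-fold, the widest range of any member within a group. The means were 16.4 ± 3.45 CPM in lesion and 17.3 ± 11.2 CPM without lesions (SD, 3 pools each). For VWF the log2 fold was 0.21 ± 0.58 (SE), with a 95% interval of -1.03 to 1.46 and an adjusted limma p of 0.922. That sign differs from the sign of the difference in means, and it turned without lesion-free pool 4, to -0.61, and with pool quality weights, to -0.33.

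**Figure D2:**
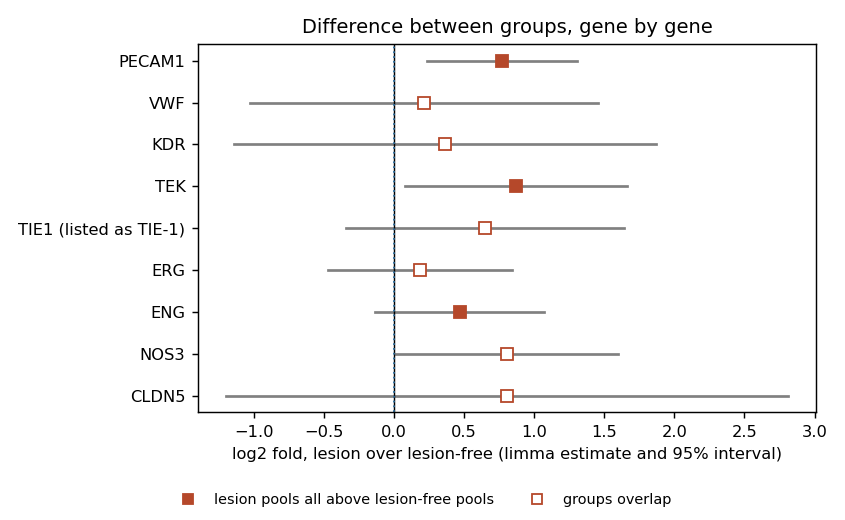
Log2 fold, lesion over lesion-free, for each member and for TIE1 listed as TIE-1. Squares are limma estimates, bars are 95% intervals, and filled squares mark genes whose lesion pools all lie above the lesion-free pools; the estimates lie between 0.19 for ERG and 0.87 for TEK, and the intervals of PECAM1, TEK and NOS3 exclude 0.

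The pools in which a member was highest or lowest differed from member to member. With each member set on the log2 scale against its own lesion-free mean, the median member stood at 0.34, 0.56 and 0.81 in lesion pools 1, 2 and 3, against 0.04, 0.10 and -0.15 in lesion-free pools 4, 5 and 6. The median was higher in each lesion pool than in each lesion-free pool, but single members departed from it. Of the 8 members, 3 were highest in lesion pool 2 (PECAM1, NOS3 and CLDN5), 3 in lesion pool 3 (TEK, ERG and ENG), and 1 each in lesion pool 1 (KDR) and lesion-free pool 6 (VWF). Lesion-free pool 6 also held the lowest value of 4 members, PECAM1, ERG, ENG and NOS3. VWF and NOS3 parted in lesion-free pools 4 and 6 and were both above their mean in pool 5: relative to its lesion-free mean VWF stood at -1.61, 0.78 and 0.83 in pools 4, 5 and 6, and NOS3 at 0.13, 0.30 and -0.43.

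**Figure D3:**
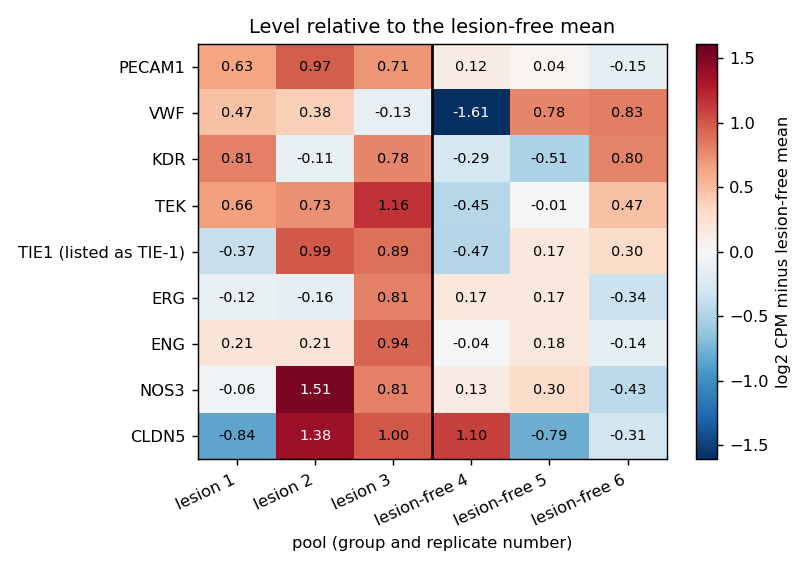
Level of each member, and of TIE1 listed as TIE-1, in each pool as log2 CPM minus the gene's mean over the 3 lesion-free pools (colour scale, with the value in each cell). Lesion pools 1 to 3 are left of the line and lesion-free pools 4 to 6 right of it; PECAM1, TEK and ENG are the rows with every lesion cell above every lesion-free cell, and VWF in lesion-free pool 4 is the lowest cell at -1.61.

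The relative balance of the members was taken as each member's log2 CPM minus the mean of the other members in the same pool. Lesion minus lesion-free, this balance differed most upward for TEK, by 0.36, PECAM1, by 0.27, and NOS3, by 0.25. It differed most downward for ERG, by -0.41, and VWF, by -0.33. The groups overlapped on this measure for all 8 members.

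Lesion pool 1 was the shallowest library, with 4650176 counts, against 10055160 and 11442433 in the other lesion pools and 8492673 to 10826175 in the lesion-free pools. It correlated at 0.79 with each of the other lesion pools on log2 CPM across genes, while those pools correlated at 0.91. Of the genes tested, 11.4% had no count in lesion pool 1, against 0.6% to 4.57% in the other 5 pools. All 8 members had counts in every pool. Without lesion pool 1 no member was called either, the median log2 fold of the members was 0.71, and 4 rather than 3 members, now with NOS3, had all remaining lesion pools above all lesion-free pools. Over all genes tested, 15.4% had that arrangement without lesion pool 1.

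Most members were carried by a single isoform. PECAM1-001 held 98.8% to 100% of the PECAM1 counts in every pool, and VWF, ERG, ENG, NOS3 and CLDN5 each had all of the gene's counts on a single isoform. TEK was the exception with enough counts to follow. Its isoform TEK-001 had 131, 158 and 370 counts in lesion pools, against 31, 94 and 104 counts in lesion-free pools. That was 100%, 53.0% and 94.4% of TEK counts in lesion pools, against 28.7%, 71.2% and 47.7% in lesion-free pools. The counts of TEK-001 separated the groups, but its share did not, because lesion pool 2 had a smaller share than lesion-free pool 5. The other TEK counts lay on TEK-003 and TEK-004. TEK-003 had 0, 140 and 0 counts in lesion pools, against 77, 38 and 90 counts in lesion-free pools. TEK-004 had 0, 0 and 22 counts in lesion pools, against 0, 0 and 24 counts in lesion-free pools. The log2 fold of TEK-001 was 1.62 ± 0.59 (SE), with an unadjusted limma p of 0.0191 and an adjusted p of 0.443. No isoform of a member was called, against 0.45% of 12666 isoforms tested in either direction. Isoform counts were estimated by sharing reads among transcripts of a gene, and the files do not record the uncertainty of that split.

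Other genes of the endothelial pathways were taken from lists grouped by role. The lists of 125 distinct genes gave 103 matched and 96 tested genes. Of these 96, 1 was called higher, against 0.968% of all genes tested. None was called lower, against 0.0771%, and 48 had a positive log2 fold. A count of 1 in 96 lies near those shares and is therefore no result about the lists. The median log2 fold of the 96 was 0.00343, near that of all genes tested. Of the 96, 13 had all lesion pools above all lesion-free pools, against 10.5% of all genes tested, and 9 had all below, against 8.97%. By list, the numbers above and below were 4 and 1 of 18 pan-endothelial genes and 3 and 1 of 12 transcription factors. They were 1 and 1 of 10 VEGF and angiopoietin genes and 1 and 4 of 13 junction partners. The endoglin and BMP9 list had 1 and 0 of 11, and NOS3 partners 0 and 1 of 11. Haemostasis had 3 and 0 of 10, and the Notch list 0 and 2 of 12. ESAM stands on both the pan-endothelial and the junction list.

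**Figure D4:**
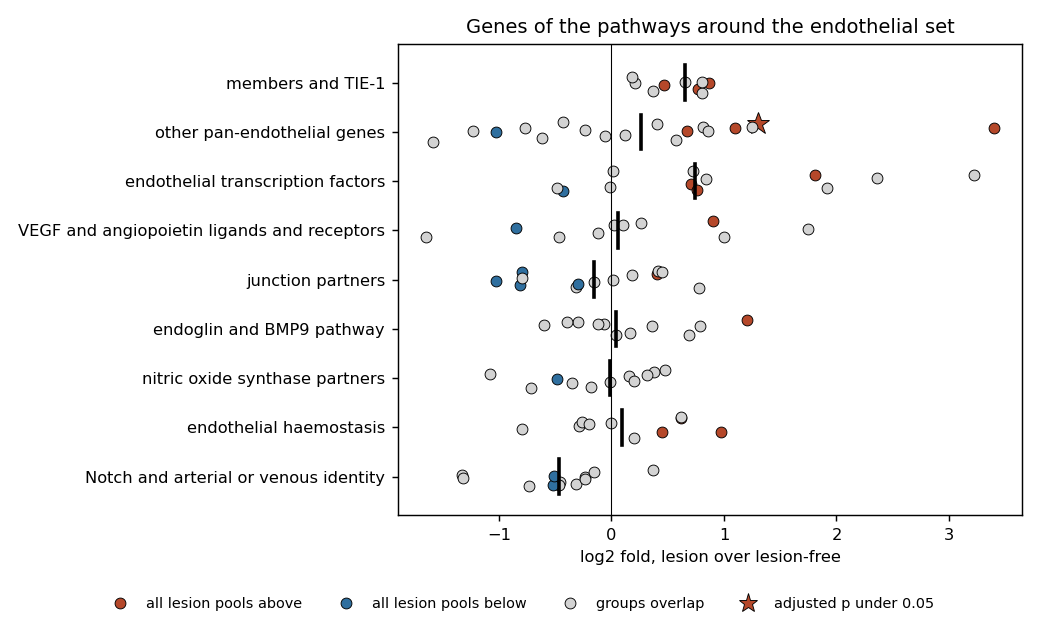
Log2 fold, lesion over lesion-free, of every tested gene (points) in the members' row and in 8 lists of related genes, with each list's median as a vertical bar. Red points have all lesion pools above, blue points all lesion pools below, and grey points overlap. The star is CLEC14A, the single called gene. List medians run from -0.46 for the Notch and arterial list to 0.74 for the transcription factors. The Notch median lies between the folds of NOTCH4 and DLL4, which lean on lesion pool 1 at 0.

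Among other pan-endothelial genes, 18 of 26 were tested, with a median log2 fold of 0.26. Of the 18, 1 was called higher, against 0.968% of all genes tested, and none lower, against 0.0771%. It was the only called gene on any of these lists. The called gene was CLEC14A, a C-type lectin-like glycoprotein of the endothelial surface, with 90.9, 116 and 122 CPM in lesion pools, against 48.4, 37.9 and 47.3 CPM in lesion-free pools. Every lesion pool lay far above every lesion-free pool. The log2 fold was 1.31 ± 0.28 (SE), or 2.47-fold, with an adjusted limma p of 0.0333. The call held in 8 of 12 alternatives. It was lost without lesion pool 2, lesion pool 3, lesion-free pool 5 or lesion-free pool 6, at adjusted limma p of 0.0904, 0.0993, 0.240 and 0.127.

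Endothelial transcription factors had 12 of 17 genes tested and none called, with a median log2 fold of 0.74. The extremes were HHEX, a homeobox factor, at 3.22 ± 1.49 (SE), and EPAS1, the hypoxia-responsive HIF-2 alpha, at -0.48 ± 0.29. HHEX had 2.69, 6.08 and 8.68 CPM in lesion pools, against 3.78, 0 and 1.02 CPM in lesion-free pools, so the groups overlapped and its fitted fold leans on the pool at 0.

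The VEGF and angiopoietin list holds the ligands of KDR and TEK. It had 10 of 12 genes tested, none called and a median log2 fold of 0.06. Its extremes, FLT4 at 1.75 ± 2.00 (SE) and VEGFD at -1.65 ± 1.62, both rested on low counts with at least 1 pool at 0. The TEK ligand ANGPT2, named here outside the naming rule, had 57.0, 20.7 and 34.6 CPM in lesion pools, against 11.7, 21.2 and 17.5 CPM in lesion-free pools. Lesion pools 1 and 3 were high and lesion pool 2 lay within the lesion-free range, with an adjusted limma p of 0.411. NRP1, a VEGF co-receptor also named outside that rule, had 137, 121 and 117 CPM in lesion pools, against 68.1, 56.7 and 74.9 CPM in lesion-free pools, which did not overlap. Its log2 fold was 0.90 ± 0.26 (SE), with an adjusted limma p of 0.158. VEGFB, also named outside that rule, went the other way without overlap. It had 44.8, 91.1 and 102 CPM in lesion pools, against 138, 147 and 134 CPM in lesion-free pools. The log2 fold of VEGFB was -0.85 ± 0.31 (SE), with an adjusted limma p of 0.307.

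Junction partners of PECAM1 and CLDN5 had 13 of 14 genes tested and none called, with a median log2 fold of -0.15. In 4 of them all lesion pools lay below all lesion-free pools, against 8.97% of all genes tested, and in 1 all lay above, against 10.5%. Of these, CTNND1, CGN, JUP and JAM2 are named here outside the naming rule. In CTNND1 the highest lesion pool had 203.6 CPM, against 204.1 CPM in the lowest lesion-free pool. CGN had only 70 counts over all pools. In JUP the margin was wider, at 338 against 396 CPM. JAM2 was the gene above, at 3.75 CPM in its lowest lesion pool, against 3.72 CPM in its highest lesion-free pool. The lowest log2 fold was that of ESAM, an adhesion molecule of endothelial tight junctions, with 83.7, 140 and 163 CPM in lesion pools, against 230, 251 and 291 CPM in lesion-free pools. Its log2 fold was -1.02 ± 0.29 (SE), opposite in sign to that of PECAM1, with an adjusted limma p of 0.149. With pool quality weights ESAM passed, at an adjusted limma p of 0.0486. The highest was F11R, or JAM-A, at 0.78 ± 0.41 (SE).

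In the endoglin and BMP9 pathway, 11 of 15 genes were tested and none called, with a median log2 fold of 0.04. The highest was ACVRL1, or ALK1, the type I receptor that signals with endoglin. It had 62.8, 83.6 and 94.1 CPM in lesion pools, against 31.8, 40.2 and 33.0 CPM in lesion-free pools, a clear separation as for CLEC14A. Its log2 fold was 1.21 ± 0.29 (SE), with an adjusted limma p of 0.0709. It passed in 3 of 12 alternatives, with plain library totals at an adjusted limma p of 0.0304, with pool quality weights at 0.00802 and without lesion pool 1 at 0.0275. The lowest was ID2, an inhibitor of DNA binding that BMP signals induce, at -0.60 ± 0.30 (SE).

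Partners of NOS3 had 11 of 15 genes tested, none called, and a median log2 fold of -0.01. The highest was CAVIN2, a caveolar coat protein, at 0.48 ± 0.32 (SE). The lowest was DDAH1, which degrades an inhibitor of nitric oxide synthase, at -1.08 ± 1.71, and this fitted sign leans on 1 pool at 0. DDAH1 had 5.97, 0 and 8.04 CPM in lesion pools, against 1.51, 1.44 and 3.36 CPM in lesion-free pools, and its mean was higher in lesion pools (4.67 against 2.10 CPM). Endothelial haemostasis genes, which share a function with VWF, had 10 of 13 tested, none called, and a median of 0.10. Of these, F8, coagulation factor VIII, which circulates bound to von Willebrand factor, stood at 0.98 ± 0.42 (SE). THBD, the anticoagulant receptor thrombomodulin, had 8.08, 92.2 and 71.4 CPM in lesion pools, against 54.7, 120 and 73.9 CPM in lesion-free pools, with lesion pool 1 far below the rest. In the Notch and arterial or venous identity list, 12 of 14 genes were tested and none called. The median log2 fold there was -0.46, and 1 of the 12 genes was positive, the Notch ligand JAG1 at 0.37 ± 0.27 (SE). JAG2 was lowest at -1.33 ± 1.35, with lesion pool 1 at 0. NOTCH4 and DLL4, named outside the naming rule, were also at 0 there. Their fitted log2 folds of -0.47 and -0.46 lean on that pool. The list median lies between these folds, so it and the count of positive genes lean on that pool too. In lesion pools 2 and 3 NOTCH4 had 20.0 and 15.8 CPM, against 8.53, 6.84 and 12.8 CPM in lesion-free pools. In the same lesion pools DLL4 had 4.65 and 3.47 CPM, against 4.21, 2.28 and 1.53 CPM.

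Markers of other cell types also differed between the groups. The summed level of 13 macrophage and leukocyte markers was 1346 to 3089 CPM in lesion pools, against 176 to 343 CPM in lesion-free pools. Of the 12 tested, 8 were called higher, against 0.968% of all genes tested, and none lower, against 0.0771%. Of the same 12, 11 had a positive log2 fold, and MRC1 a negative one of -0.91. The groups overlapped for MRC1 and CD14. No marker was at 0 in every pool, although CD163 was near 0 throughout. Leukocytes make PECAM1, and their part in its level was not tested. PECAM1 and the summed macrophage and leukocyte level were both higher in every lesion pool than in any lesion-free pool. Among the lesion pools, where PECAM1 ranged within 1.27-fold, they did not rank alike. PECAM1 was highest in lesion pool 2, where the summed level was lowest, and lowest in lesion pool 1, where the summed level was highest. Platelet markers, relevant to PECAM1 and VWF, summed to 0 to 4.75 CPM over 6 genes in lesion pools, against 2.95 to 5.64 CPM in lesion-free pools, and PPBP and GP1BB were at 0 in all pools.

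Smooth muscle markers summed over 7 genes to 30522 to 44020 CPM in lesion pools, against 70429 to 79954 CPM in lesion-free pools. CNN1 and DES were called lower among the 7 tested, against 0.0771% of all genes tested, and none was called higher, against 0.968%. The part of the lower smooth muscle level in the endothelial values, which are shares of all counted RNA, was not tested. The 4 microvascular endothelial markers matched summed to 62.4 to 154 CPM in lesion pools, against 8.09 to 13.9 CPM in lesion-free pools. In the lesion pools most of this sum was CD36, which was called higher and which macrophages also make. CA4 had 8.66, 7.60 and 30.1 CPM in lesion pools, against 0.755, 0 and 0.203 CPM in lesion-free pools, without overlap. Its adjusted limma p was 0.314, and its lesion-free values rest on few counts. The other markers, ESM1 and RGCC, overlapped, with log2 folds of -1.51 and 0.27. Lymphatic endothelial markers (6 genes) summed to 43.1 to 105 CPM in lesion pools, against 20.4 to 50.1 CPM in lesion-free pools, and overlapped. That list shares FLT4 with the VEGF list. Adventitial fibroblast markers (8 genes) summed to 7140 to 7905 CPM in lesion pools, against 5481 to 6826 CPM in lesion-free pools, without overlap and with none called. COL1A2 held 60.0% to 78.3% of that sum, and the 7 others overlapped, at 1550 to 2037 CPM in lesion pools, against 1843 to 2461 CPM in lesion-free pools. Of the 8 fibroblast markers 4 had a positive log2 fold, and DCN, DPT, PI16 and SCARA5 a negative one. Pericyte markers (6 genes) overlapped, at 2316 to 3431 CPM in lesion pools, against 2033 to 3684 CPM in lesion-free pools. So did adipocyte markers (4 genes, LEP at 0 in all pools), at 43.7 to 89.7 CPM in lesion pools, against 39.9 to 89.5 CPM in lesion-free pools, and red blood cell markers (3 genes), at 24.0 to 105 CPM in lesion pools, against 30.9 to 140 CPM in lesion-free pools.

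**Figure D5:**
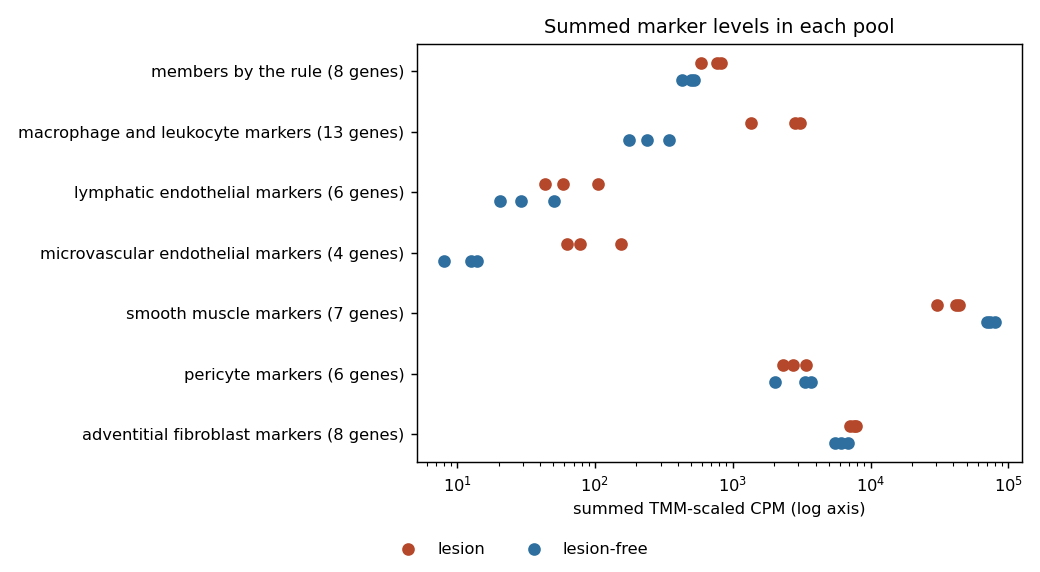
Summed TMM-scaled CPM of the 8 members and of marker lists of other cell types (log axis), with each lesion pool as a red point above each lesion-free pool as a blue point. The members, macrophage and leukocyte, microvascular and fibroblast sums lie higher in every lesion pool than in any lesion-free pool, the smooth muscle sum lies lower, and the lymphatic and pericyte sums overlap. Without COL1A2 the fibroblast sums overlap, and without PECAM1 those of the members do.

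The genes whose profile over the 6 pools lay nearest to the mean profile of the members were taken from 7806 candidates by the root mean square difference of centred log2 CPM. They were AHI1 at 0.10, GRN at 0.11, PML at 0.11, SYNE2 at 0.11 and PRPS2 at 0.13. These genes were picked for their nearness, so their distances cannot be set against those of the members. Among the members, ENG and PECAM1 were closest to the members' mean, at 0.21 and 0.23, and CLDN5 and VWF farthest, at 0.82 and 0.83.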

How the data were processed

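RNA of abdominal aorta was sequenced in 6 pools. Per the labels' protocols, tissue was ground to powder, RNA was purified on columns, and a stranded total RNA kit gave the libraries. RSEM 1.3.0 and edgeR are named, per the submitters' processing notes, without a stated role. No source used here names the aligner or the genome build. The authors deposited whole-number counts per gene and per isoform, with commas in values from 1000 upward (other unit in the record of the files), which were removed. Near-identical genes are uncertain because reads were shared by estimation.

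Libraries were scaled by TMM (30% of M values and 5% of A values trimmed) and tested with limma 3.58.1 in R 4.3.3, with voom weights (offset 0.5) and robust empirical Bayes, two-sided, on all 11673 genes with at least 1.00 CPM, the level of 10 counts in the median library, in at least 3 pools and at least 15 counts in all. The 12666 isoforms past the same filter were fitted likewise. P-values were adjusted by Benjamini and Hochberg over all genes or isoforms tested, with a threshold of 0.05. In lesion pool 1 a floor of 3 counts is 0.577 CPM, against 0.268 to 0.36 CPM elsewhere, and it covers counting error only. No pool repeated another: the chi-square per degree of freedom within groups was 22.7 to 97.7. P-values reflect how pools differ, and animals may differ more. The fit was tested on simulated data in which every gene and pool had the same spread, which these pools need not share.

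The members and all lists were chosen with earlier results of these data known. On each related list the text names the called genes, or where none was called the highest and lowest log2 fold, plus the 5 nearest profiles. Others are said to be outside that rule or are listed markers. Of the 22861 identifiers in the gene table, 11450 were in the reference table of names. Alternatives were other library scaling, no filter, limma-trend, pool quality weights, ordinary empirical Bayes and each pool left out. Promoter and protein sequences and levels per gene length were not used here.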

Additional observations from a re-analysis of the deposited data

How the results depend on the processing

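Over 12 alternatives the median log2 fold of the members stayed between 0.48 (limma-trend) and 0.77 (plain library totals, which also moved the median of all genes to 0.16). It was 0.50 to 0.71 with each pool left out in turn and 0.65 with TIE1 counted. Members called numbered 1 with pool quality weights (PECAM1) and 0 in the other 11 alternatives, 0 to 0 with each pool left out. The log2 fold of VWF reversed to -0.33 with pool quality weights and to -0.61 without lesion-free pool 4, and that of ERG to -0.14 without lesion pool 3. With each pool left out, VWF ran from -0.61 to 0.67 and ERG from -0.14 to 0.35. The other 6 members and TIE1 stayed positive in all 12, but with each pool left out their log2 folds ranged over 0.67 to 0.85 (PECAM1), 0.63 to 1.12 (TEK), 0.42 to 0.95 (TIE1), 0.21 to 0.59 (ENG), 0.42 to 1.17 (NOS3), 0.10 to 0.80 (KDR) and 0.37 to 1.37 (CLDN5). Isoforms of members called stayed at 0.

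Genes called higher numbered 171 without the low-count filter and 213 with pool quality weights, and 55 to 150 with each pool left out, with the fewest without lesion-free pool 6. Genes called lower numbered 17 without the filter and 40 with pool quality weights, and 4 to 36 with each pool left out, with the fewest without lesion-free pools 5 or 6 and the most without lesion pool 3. Called genes of the related lists numbered 2 with plain library totals, 3 with pool quality weights and 0 to 2 with each pool left out. The cause was not tested. The alternatives for isoforms, related lists, TIE1 and sums without 1 gene were chosen after seeing the data. No paired analysis was possible because the groups share no replicate numbers. Depth limits KDR and CLDN5 most, with 273 and 221 counts over all pools.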

Other observations

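In lesion pool 1, 10 of the 96 tested genes of the related lists had no count, or 10.4%, against 11.4% of all genes tested. They were ROBO4, ADGRL4, ARHGEF15, VEGFD, FLT4, OCLN, MMRN1, DLL4, JAG2 and NOTCH4. NOTCH4, an endothelial Notch receptor, had 0, 20.0 and 15.8 CPM in lesion pools 1, 2 and 3, against 8.53, 6.84 and 12.8 CPM in lesion-free pools 4, 5 and 6. ARHGEF15, an endothelial guanine nucleotide exchange factor, had 0, 6.61 and 7.77 CPM in lesion pools, against 5.07, 7.91 and 8.04 CPM in lesion-free pools. In both genes the other lesion pools lay within or above the lesion-free range. In lesion pool 1 a count of 0 allows up to 0.577 CPM (3 counts, counting error only). In the same pool all TEK counts lay on TEK-001, and all 36 KDR counts lay on a transcript named KDR-002, which had 0 counts in lesion pool 2, 15 in lesion pool 3 and 0 in every lesion-free pool. A different transcript also named KDR-002 had 14 counts in lesion-free pool 4 and 0 elsewhere, and those 14 were not part of the gene's KDR count.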
